A study of Homo sapiens with 6 samples.

Results

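Heparan sulfate is built by a set of enzymes and carried by a set of core proteins, and the 37 genes described here cover both. They were taken from a list of heparan sulfate synthesis and proteoglycan genes, matched by symbol, and make up 37 of the 58302 genes counted. Total RNA from a breast cancer line labelled MDA-MB-231 was sequenced after rRNA removal, with 3 libraries from cells expressing a control shRNA and 3 from cells expressing Smyca shRNA #1. Smyca is a long noncoding RNA, listed as MIR23AHG in the annotation, and the comparison asks how the transcriptome differs when it is reduced. All 6 libraries carry an shRNA. The knockdown group rests on 1 hairpin, so an effect of Smyca and an effect of that hairpin's sequence elsewhere cannot be told apart. The study describes the libraries of a group as biological repeats but does not say whether they were separate cultures, so p-values measure the spread between these samples, which may be technical.

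Heparan sulfate is a sulfated sugar chain attached to proteins at the cell surface and in the matrix, where it binds growth factors, chemokines and their receptors. Its synthesis in the Golgi starts with a linkage sugar on the core protein, goes on with exostosins that polymerize the chain, and ends with enzymes that remove acetyl groups, add sulfate and flip glucuronic to iduronic acid. Sulfatases and heparanase edit the finished chain outside the cell, and breast cancer cells can carry it on syndecans, glypicans, agrin and perlecan.

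Total counts lay between 14999307 in control replicate 3 and 16501085 in control replicate 1. Values are normalized CPM, which are counts scaled to the TMM library size, given in the order of replicates 1, 2 and 3. At this depth, 3 counts, the upper limit that a count of 0 allows, correspond to between 0.185 and 0.198 CPM. Such limits cover counting error only.

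The target of the knockdown, MIR23AHG (ENSG00000267519), stood at 24.99, 19.5 and 21.96 CPM in the control libraries and 10.5, 6.97 and 5.61 CPM in the knockdown libraries. Every knockdown library lay below every control library, as the labels have it. The log2 fold change of knockdown over control was -1.53 (SE 0.26, adjusted p = 0.111 with edgeR's quasi-likelihood test), so the target itself did not pass the threshold once adjusted over all genes. The edgeR adjusted p was 0.0152 without control replicate 3 and ranged from 3.96e-05 to 0.44 over all alternatives, DESeq2 included. An exact permutation test on the CPM values, two-sided, gave p = 0.1, the smallest that 3 against 3 allow. The sequence targeted by the hairpin, shown in capitals because all of it is the site, occurs in an exon of MIR23AHG, a noncoding gene, at chr19:13836056-13836076 on the minus strand of GRCh38.
Smyca shRNA #1 target: GCATAGATAGGTGGGTGAGTG
It matched 1 of 252835 annotated transcripts and 0 of the 292 transcripts of the heparan sulfate genes over its full 21 bases; partial matches were not searched.

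The marker genes went against parts of the cell line label. MDA-MB-231 is known as a mesenchymal, triple-negative line. CDH1, the epithelial cadherin, stood at 300.1, 192 and 71.5 CPM in the control and 93.8, 77.6 and 172 CPM in the knockdown libraries. EPCAM, an epithelial adhesion molecule, lay between 236 and 336 CPM over all libraries, VIL1, an actin-bundling protein of gut epithelium, between 220.5 and 501 CPM, and HNF4A, a transcription factor of gut and liver, between 65.4 and 194 CPM. CDX2, another gut transcription factor, had 95 to 168 counts in a library. The remaining gut genes were low, with 0 counts of CDX1, at most 3 of FABP1, 9 of MUC2, 21 of LGALS4 and 67 of CDH17 in a library. TWIST1, a mesenchymal transcription factor, had 0 counts in every library and SPARC, a matrix protein of mesenchymal cells, at most 11 counts. Other mesenchymal genes were measured in every library, among them MSN at 341 to 767 CPM, VIM at 71.2 to 305 CPM and CAV1 at 27.9 to 101 CPM. ESR1 and PGR had at most 3 counts in any library, as the triple-negative label has it, while ERBB2, which that label also concerns, lay between 46.7 and 72.2 CPM. The cells are therefore called the cells labelled MDA-MB-231 here.

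**Figure D1:**
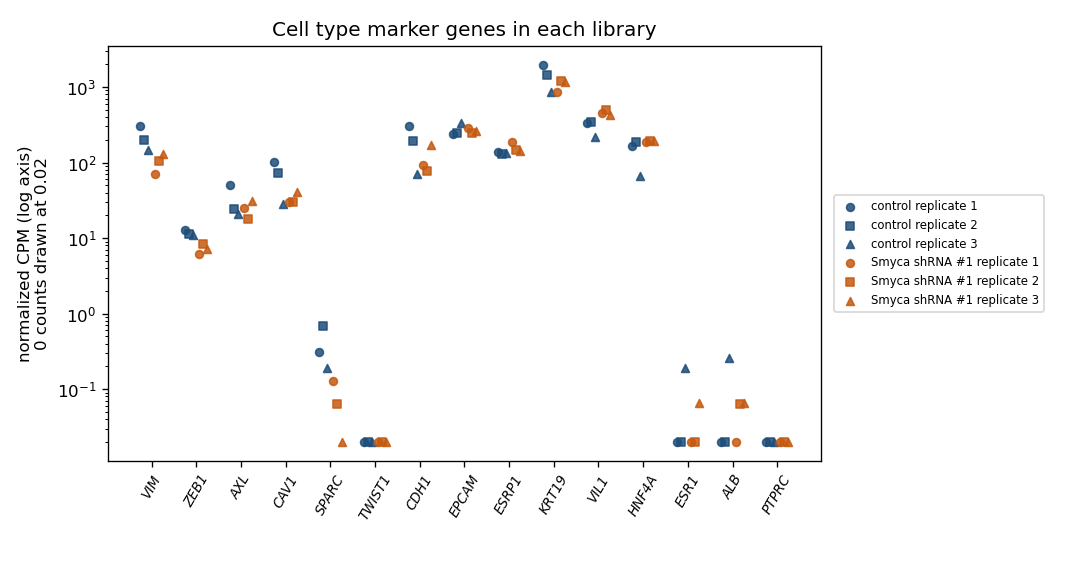
Normalized CPM (log axis) of 15 marker genes in each library, with blue for control, orange for Smyca shRNA #1 and a shape per replicate; a library with 0 counts is drawn at the bottom. KRT19, CDH1 and EPCAM stand far above SPARC and TWIST1 in all 6 libraries.

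Some marker genes also had unadjusted p-values under 0.05 between the groups. Of the mesenchymal and basal-like list, 10 of 13 genes were tested, of which 6 were lower and 0 higher in the knockdown at an unadjusted p under 0.05 (beside 10.4% and 8.74% of all genes), and 0 passed once adjusted by edgeR. Its summed level was 1418, 1165 and 667 CPM in the control and 716, 798 and 1061 CPM in the knockdown libraries, with control replicate 3 below and knockdown replicate 3 above the other knockdown libraries, and its most abundant gene per length was MSN. VIM, an intermediate filament of mesenchymal cells, stood at 305, 200.3 and 148 CPM in the control and 71.2, 105 and 129.7 CPM in the knockdown, without overlap. Of the gut epithelium list, 5 of 8 genes were tested, with 1 higher (VIL1) and 1 lower (LGALS4) at an unadjusted p under 0.05. Its summed level was 516, 542 and 294 CPM in the control and 657, 708 and 628 CPM in the knockdown libraries, with VIL1 the most abundant per length and CDX1 at 0. In bulk RNA, fewer cells of a type and less RNA per cell cannot be told apart, and the part of these markers in the results below was not tested.

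Control replicate 3 stood apart from its group. Across the 15075 genes tested, which are not independent replicates, its log2 CPM correlated with control replicates 1 and 2 at r = 0.957 and 0.966, against 0.991 between those libraries, and with knockdown replicates 1, 2 and 3 at 0.974, 0.973 and 0.974. Control replicate 2 correlated with the knockdown replicates about as closely, at 0.974, 0.971 and 0.973. Control replicate 1 was the farthest from them, at 0.961, 0.955 and 0.961. Knockdown replicate 3 correlated with knockdown replicates 1 and 2 at 0.977 and 0.981, against 0.991 between them. The count and FPKM columns of control replicate 2 did not describe the same reads. Whole reads recovered from its FPKM column correlated with its own counts at r = 0.969 and with the counts of control replicate 3 at 0.986, on a log2 scale over 23593 genes. Results are given with all 6 libraries and, for some heparan sulfate genes, also with a library left out; genes of the other lists were not compared in this way.

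Between control and Smyca knockdown, none of the heparan sulfate genes passed the test. Of the 37 genes, 29 passed the filter on low counts, and 0 of these had a control over knockdown ratio of at least 1.5 or at most 0.66 with an adjusted p under 0.05 in edgeR, beside 0.0265% (4 genes, DUSP1, ZFP36, JUN and B4GALNT4, all lower in the knockdown and named after their values were seen) of all 15075 genes tested. At an unadjusted p under 0.05, 4 of the 29 were higher in the knockdown (13.8%, beside 8.74% of all genes) and 2 were lower (6.9%, beside 10.4%). The genes higher were FAM20B, NDST1, SDC1 and SLC35B2, and those lower were HS3ST1 and PAPSS2. The groups did not overlap for 8 of the 29 genes (27.6%, beside 24.8% of all genes), which adds EXT2 (higher) and EXTL2 (lower) to these 6; with counts scaled to their totals EXT2 overlapped, which leaves 7 (24.1%, beside 24.6%). With shares near those of all genes, the counts show nothing about the heparan sulfate genes as a list. Their median log2 fold change was 0.028, beside -0.036 over all genes, with a range from -1.37 (PAPSS2) to 0.72 (NDST1). DESeq2 called 2 of the 29, NDST1 and PAPSS2, beside 5.55% of all genes. Without control replicate 3, edgeR called 4 (B3GALT6, NDST1, HS3ST3B1 and PAPSS2), beside 10.5% or 1628 of all genes in place of 4. The count over all genes was 0 without control replicate 1, knockdown replicate 1 or knockdown replicate 2, and 2 without control replicate 2 or knockdown replicate 3. The number of heparan sulfate genes lower at an unadjusted p under 0.05 went from 2 to 6 without control replicate 3. It went to 1 without control replicate 1, knockdown replicate 1 or knockdown replicate 2. The shares of all genes lower in these fits are not given here, so these counts show nothing about the heparan sulfate genes in particular.

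**Figure D2:**
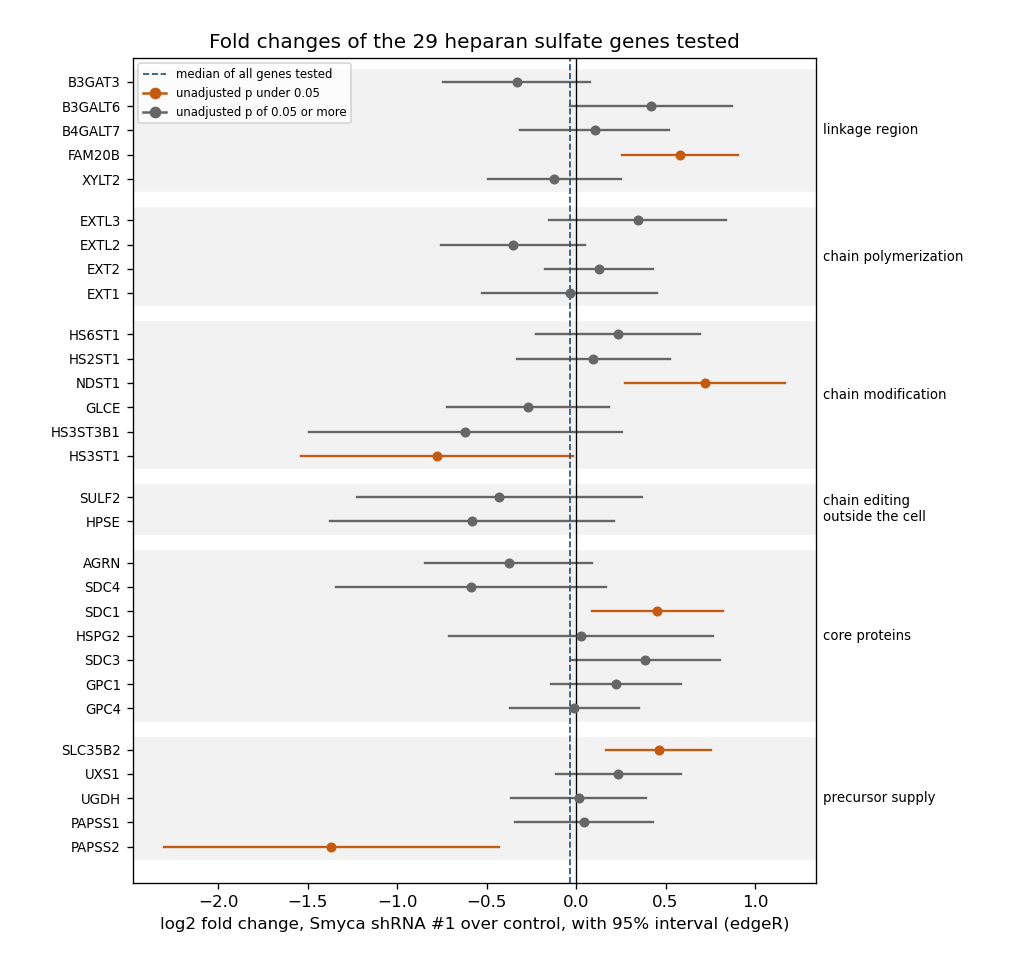
Log2 fold change of Smyca shRNA #1 over control for each of the 29 genes tested, grouped by role, with its 95% interval from edgeR; orange marks an unadjusted p under 0.05 and the dashed line the median of all genes. PAPSS2 lies lowest at -1.37 and NDST1 highest at 0.72.

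The remaining 8 genes were too low to test. XYLT1, a xylosyltransferase, had at most 7 counts in a library, EXTL1, an exostosin-like gene, at most 5, NDST2, an N-deacetylase/N-sulfotransferase, at most 4, and GPC3, a glypican, at most 4. HS6ST2, SULF1, SDC2 and GPC6 had 0 counts in every library. NDST2 shares 82.9% of its exon bases on the same strand with the gene ENSG00000272916, which had 0 counts in all libraries. How reads in shared bases were counted is not given in the sources used here, so the counts of NDST2 are uncertain.

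The enzymes of the linkage region prime the core protein. B3GAT3, which adds the glucuronic acid that completes the linkage, was the most abundant of them per length, at a level, in CPM per kilobase of transcript, of 92.7 ± 12.4 in the control libraries and 73.6 ± 13.4 in the knockdown libraries (SD, n = 3). It stood at 118, 132 and 154 CPM in the control and 124, 111 and 85.5 CPM in the knockdown libraries. Its groups overlapped, since knockdown replicate 1 lay above control replicate 1, and its log2 fold change was -0.33 (SE 0.18, adjusted p = 0.35, edgeR), -0.19 without knockdown replicate 3 and -0.22 without control replicate 3, and -0.082 without both. FAM20B, the kinase that phosphorylates the linkage xylose, stood at 45.2, 49.5 and 39.6 CPM in the control and 68.8, 66.9 and 64.97 CPM in the knockdown. All 3 knockdown libraries lay above all 3 control libraries and close to each other. The log2 fold change of FAM20B was 0.58 (SE 0.14, unadjusted p = 0.00305, adjusted p = 0.122, edgeR), which misses both the adjusted threshold and the ratio of 0.66. The adjusted p was 0.0183 in DESeq2 and ranged from 0.0183 to 0.44 over the alternatives. B3GALT6, a galactosyltransferase chosen after its values were seen, stood at 50.4, 52.98 and 78.96 CPM in the control and 88.3, 83.3 and 71.8 CPM in the knockdown. Control replicate 3 lay above knockdown replicate 3 and apart from the other controls. With all libraries its log2 fold change was 0.42 (adjusted p = 0.295, edgeR), and without control replicate 3 it was 0.66 (adjusted p = 0.0348, edgeR; 0.00615 to 0.681 over the alternatives). It was 0.30 without control replicate 1 and 0.18 with the FPKM reads of control replicate 2. XYLT2, the xylosyltransferase that was measured, and B4GALT7, the other galactosyltransferase, had log2 fold changes of -0.12 and 0.10 with overlapping groups. Per length, the linkage genes summed to 125, 134 and 159 CPM per kilobase in the control and 146, 136 and 112 CPM per kilobase in the knockdown libraries.

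None of the chain polymerization genes tested had an unadjusted p under 0.05 in edgeR. EXT1 and EXT2 form the polymerase that extends the chain, and EXTL2 and EXTL3 transfer single sugars at its start. EXTL3 was the most abundant of the 5 exostosins per length of canonical transcript over all 6 libraries. Its level, in CPM per kilobase, was 7.9 ± 1.65 in the control libraries and 10.03 ± 2.3 in the knockdown libraries (SD, n = 3). EXTL2 came first in the control group, and EXT2 with the gene lengths behind the deposited FPKM values. EXTL3 stood at 74.9, 70.6 and 49.5 CPM in the control and 70.6, 72.5 and 104 CPM in the knockdown. The lowest value was control replicate 3 and the highest knockdown replicate 3, and the other libraries overlapped. The log2 fold changes of the 4 genes tested ran from -0.35 (EXTL2) to 0.34 (EXTL3), with edgeR adjusted p-values between 0.314 and 0.939. That of EXTL3 was 0.15 without knockdown replicate 3 and 0.19 without control replicate 3, -0.015 without both of these libraries, and 0.53 with the FPKM reads of control replicate 2. EXT2 stood at 77.6, 71.6 and 66.1 CPM in the control and 77.7, 78.4 and 79.2 CPM in the knockdown, with a log2 fold change of 0.13. Its groups were apart by under 0.1 CPM, and overlapped with counts scaled to their totals. EXTL2 stood at 21.9, 23.3 and 26.4 CPM in the control and 19.9, 15.9 and 20.3 CPM in the knockdown, likewise without overlap. EXT1 changed sign without control replicate 1 (0.14 in place of -0.037 on the log2 scale) and without knockdown replicate 2 (0.067).

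Among the enzymes that modify the chain, NDST1 was higher and HS3ST1 lower in the knockdown, neither past the adjusted threshold. NDST1, which removes acetyl groups and adds N-sulfate, the step that later modifications depend on, stood at 31.5, 33.2 and 38.7 CPM in the control and 48.6, 48.8 and 72.9 CPM in the knockdown. Every knockdown library lay above every control library, with knockdown replicate 3 the highest. Its log2 fold change was 0.72 (SE 0.20, 95% interval 0.27 to 1.17, unadjusted p = 0.00553, adjusted p = 0.13, edgeR). The adjusted p was 0.0293 in DESeq2, 0.0422 in edgeR without control replicate 3, and ranged from 0.0139 to 0.44 over the alternatives. HS3ST1, a 3-O-sulfotransferase known for the antithrombin-binding site, stood at 6.54, 3.14 and 4.55 CPM in the control and 2.67, 2.85 and 2.77 CPM in the knockdown. The knockdown libraries lay close together below the controls, of which replicate 1 was highest and replicate 2 nearest to the knockdown. On the log2 scale the fold change was -0.78 (SE 0.33, unadjusted p = 0.0457, adjusted p = 0.25, edgeR), on 42 to 106 counts per library; it was -0.48 without control replicate 1 and -0.9997 without control replicate 2, with an adjusted p of 0.12 to 0.639 over the alternatives. HS3ST3B1, another 3-O-sulfotransferase and named after its values were seen, stood at 14.9, 12.98 and 4.87 CPM in the control and 7.17, 6.65 and 7.53 CPM in the knockdown. Control replicate 3 lay below every knockdown library. With all libraries the log2 fold change of HS3ST3B1 was -0.62 (adjusted p = 0.408, edgeR), and without control replicate 3 it was -0.97 (adjusted p = 0.025, edgeR; 0.00909 to 0.786 over the alternatives). It was -0.33 without control replicate 1 and -0.30 with the FPKM reads of control replicate 2. HS3ST3B1 and HS3ST3A1 are near-identical copies in their catalytic part, so reads could be split between them and their counts are uncertain. HS6ST1, a 6-O-sulfotransferase, was the most abundant modifying enzyme per length of canonical transcript over all 6 libraries. Its level, in CPM per kilobase, was 5.63 ± 0.907 in the control libraries and 6.62 ± 1.34 in the knockdown libraries (SD, n = 3). HS2ST1 came first in the control group and NDST1 in the knockdown group. NDST1 also came first with the lengths behind the FPKM values. HS6ST1 stood at 23.4, 27.8 and 20.1 CPM in the control and 24.95, 24.5 and 34.5 CPM in the knockdown, with overlap and a log2 fold change of 0.23, 0.064 without knockdown replicate 3, 0.13 without control replicate 3 and 0.36 without control replicate 2. It turned to -0.044 without replicate 3 of both groups. GLCE, the epimerase, and HS2ST1, the 2-O-sulfotransferase, had log2 fold changes of -0.27 and 0.097 with overlapping groups. HS2ST1 was -0.073 without knockdown replicate 3, and 8.5% of its exon bases are shared on the same strand with ENSG00000267561, which had 0 counts.

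**Figure D3:**
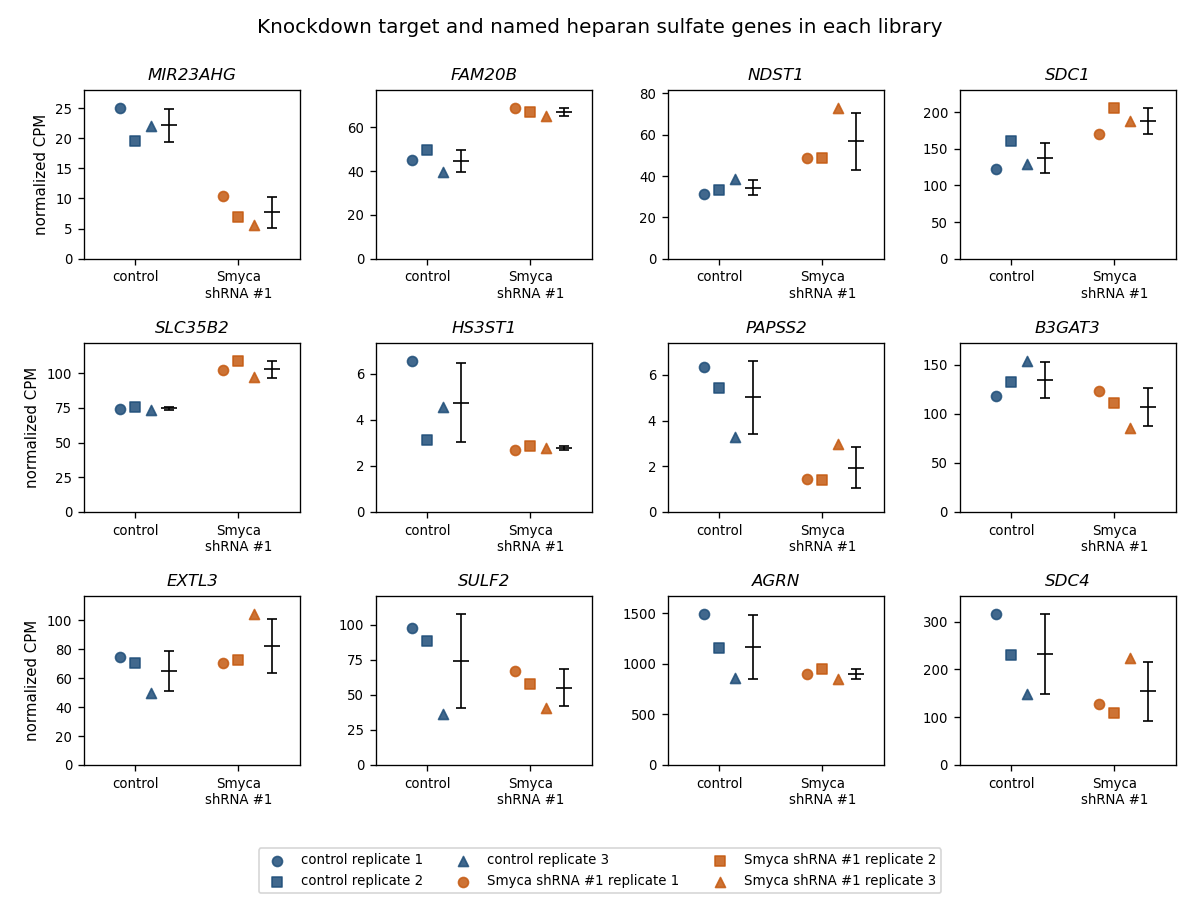
Normalized CPM of MIR23AHG and 11 heparan sulfate genes in each library; points are libraries with a shape per replicate, and the black mark and bar beside each group are its mean and SD (n = 3). FAM20B, NDST1, SDC1 and SLC35B2 are higher and HS3ST1 and PAPSS2 lower in all 3 knockdown libraries than in any control library, while control replicate 3 lies among or below the knockdown values for SULF2, AGRN and SDC4.

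Promoter windows were read from RefSeq (GRCh38.p14), which held 43 windows of 300 bases for 30 of the 37 genes, and were searched on both strands for 5 motifs. CACGTG, the E-box of MYC and MAX, occurred in 5 of these windows (11.6%), beside 7.26% of all 35116 windows. They belong to B3GALT6, EXTL2, HPSE, SLC35B2 and SULF2, with log2 fold changes of 0.42, -0.35, -0.58, 0.46 and -0.43. GTCTAGAC, a palindromic Smad-binding element, and AGCCAGACA, the CAGA box of SMAD3 and SMAD4, occurred in 0 of them, beside 0.202% and 0.288% of all windows. TGACTCA, the AP-1 motif, occurred in 1 (2.33%, beside 4.95%), and GGGCGG, the GC box, in 32 (74.4%, beside 45%). Windows of the same gene can overlap, as those of EXT2 and HPSE do, so a match can count in more than 1 window. These motifs do not contain each other. The windows of NDST1 (chr5:150497529-150497828, plus strand), the 1 with an AP-1 match, and of SLC35B2 (chr6:44257239-44257538, minus strand), the 1 with 2 E-boxes, are shown because both genes were higher in every knockdown library. By annotation NDST1 spans chr5:150485818-150558211 and SLC35B2 chr6:44254096-44257890. Both windows lie inside their genes, downstream of the outermost annotated start. Each window runs 5′ to 3′ from 250 bases before to 50 bases after a RefSeq start. The AP-1 match, which lies on the reverse strand, and the E-boxes are in capitals. A GC box match at -235 in the NDST1 window is left in lower case. SLC35B2 has another window with a start further upstream, chr6:44257479-44257778, without an E-box.
NDST1 promoter window: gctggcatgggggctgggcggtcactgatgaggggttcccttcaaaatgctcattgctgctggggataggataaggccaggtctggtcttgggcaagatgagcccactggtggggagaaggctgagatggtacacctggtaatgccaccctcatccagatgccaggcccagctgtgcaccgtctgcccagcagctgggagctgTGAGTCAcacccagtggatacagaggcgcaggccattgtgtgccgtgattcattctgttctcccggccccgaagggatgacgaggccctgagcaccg
SLC35B2 promoter window: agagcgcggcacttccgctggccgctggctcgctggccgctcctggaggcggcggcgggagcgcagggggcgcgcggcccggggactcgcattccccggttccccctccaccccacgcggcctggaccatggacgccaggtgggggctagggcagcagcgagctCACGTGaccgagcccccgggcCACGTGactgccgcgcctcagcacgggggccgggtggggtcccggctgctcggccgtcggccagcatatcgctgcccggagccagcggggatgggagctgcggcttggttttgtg
A match of letters is a description of the window and not a bound site.

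Of the 3 enzymes that edit chains outside the cell, 2 were tested, with overlapping groups and 0 at an unadjusted p under 0.05 in edgeR. SULF2, a sulfatase that removes 6-O-sulfate, was the more abundant per length, at a level, in CPM per kilobase, of 19.5 ± 8.74 in the control libraries and 14.5 ± 3.51 in the knockdown libraries (SD, n = 3). It stood at 97.9, 88.5 and 36.1 CPM in the control and 66.9, 57.8 and 40.6 CPM in the knockdown. Control replicate 3 was the lowest of all 6 libraries, and the other controls the highest. Its log2 fold change was -0.43 (SE 0.35, adjusted p = 0.529, edgeR) with all libraries and -0.75 (adjusted p = 0.0536, edgeR; 0.0217 to 0.969 over the alternatives) without control replicate 3. It was -0.18 without control replicate 1, -0.28 without control replicate 2, -0.24 without knockdown replicate 3 and -0.035 with the FPKM reads of control replicate 2. In the FPKM column of control replicate 2, SULF2 had 646 reads where the count column has 1438. HPSE, heparanase, which cleaves the chain, had 31 to 66 counts per library and a log2 fold change of -0.58 (adjusted p = 0.395, edgeR), -0.33 without control replicate 2 and -0.82 without control replicate 1. SULF1, the other sulfatase, was at 0.

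The core proteins carried most of the counts. Per length, they summed to 458, 402 and 275 CPM per kilobase in the control and 337, 332 and 346 CPM per kilobase in the knockdown libraries, and control replicate 3 was the lowest. AGRN (agrin), a basement membrane proteoglycan, was the most abundant of all 37 genes per length, at a level, in CPM per kilobase, of 159 ± 43.1 in the control libraries and 123 ± 7.06 in the knockdown libraries (SD, n = 3). It stood at 1489, 1158 and 858 CPM in the control and 899, 953 and 849 CPM in the knockdown. Control replicates 1 and 2 lay above the knockdown and control replicate 3 within it, and the log2 fold change was -0.38 (SE 0.20, adjusted p = 0.35, edgeR), -0.55 without control replicate 3 (adjusted p = 0.0551) and -0.17 without control replicate 1 (adjusted p = 0.769). Of the syndecans, the transmembrane carriers, SDC1 stood at 122, 161 and 129 CPM in the control and 169.8, 205 and 189 CPM in the knockdown. All knockdown libraries lay above the controls, of which replicate 2 came nearest. SDC1 had a log2 fold change of 0.45 (SE 0.16, unadjusted p = 0.0207, adjusted p = 0.186, edgeR). SDC4, described after its values were seen, stood at 316, 231 and 148 CPM in the control and 129, 109 and 225 CPM in the knockdown. Knockdown replicates 1 and 2 lay below all controls, and knockdown replicate 3 between the controls. Its log2 fold change was -0.59 (SE 0.33, adjusted p = 0.367, edgeR), and -0.95 without knockdown replicate 3 (adjusted p = 0.186, edgeR; 0.00306 to 0.752 over the alternatives). It was -0.82 without control replicate 3 (adjusted p = 0.098), -0.31 without control replicate 1 and -0.39 without knockdown replicate 2. The ratio of SDC4 to SDC1 per length, which needs no scaling between libraries, was 3.13, 1.74 and 1.39 in the control and 0.918, 0.644 and 1.44 in the knockdown libraries. It overlapped, since knockdown replicate 3 lay above control replicate 3. HSPG2 (perlecan), a large matrix proteoglycan also described after its values were seen, stood at 725, 767 and 316 CPM in the control and 725, 658 and 461 CPM in the knockdown. The libraries of replicate 3 were the lowest in both groups, and the log2 fold change went from 0.028 (SE 0.32) with all libraries to -0.27 without control replicate 3. HSPG2 also turned negative with total counts as the scaling (-0.033), without knockdown replicate 1 (-0.10) and without knockdown replicate 2 (-0.018). It was further above 0 with the FPKM reads of control replicate 2 (0.44) and without control replicate 1 (0.18), control replicate 2 (0.24) or knockdown replicate 3 (0.21). SDC3, a syndecan, and the glypicans GPC1 and GPC4, held at the membrane by a lipid anchor, had log2 fold changes of 0.39, 0.22 and -0.010 with overlapping groups; that of GPC4 was 0.0040 with RLE size factors.

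**Figure D4:**
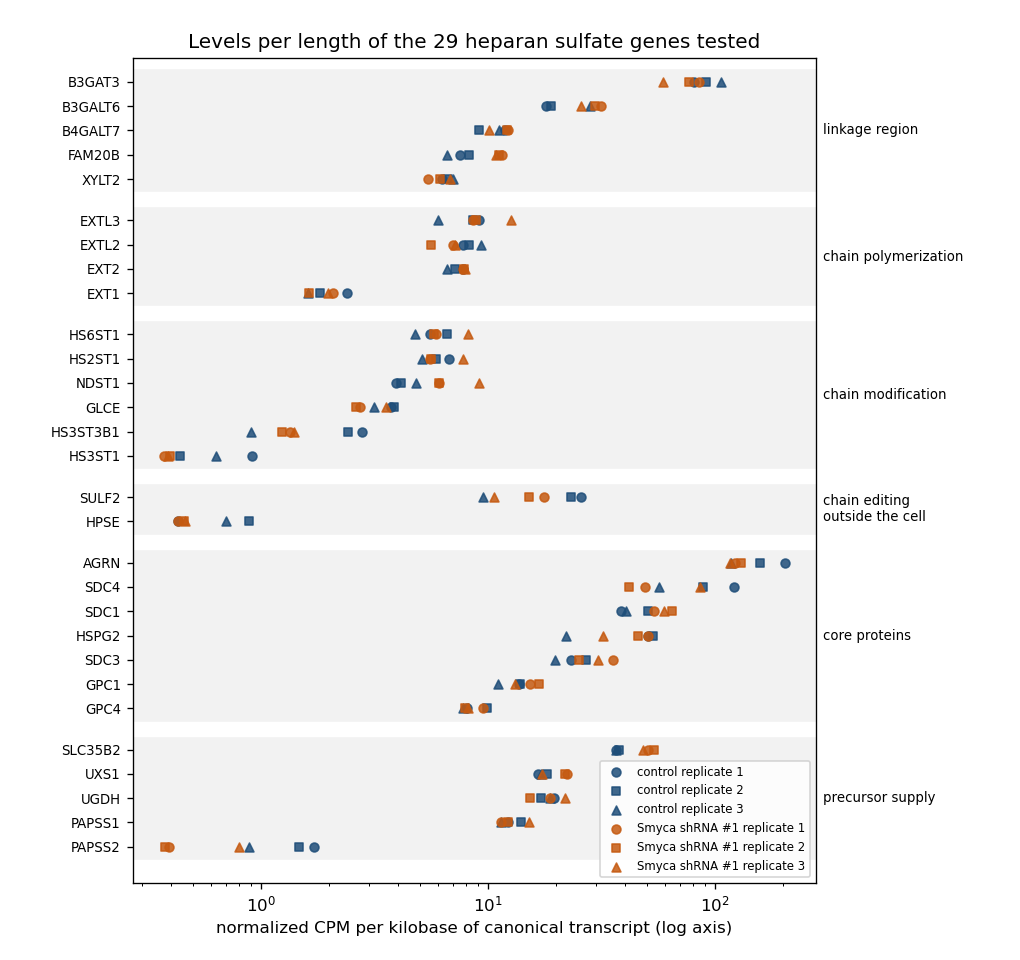
Level of the 29 genes tested in each library, in normalized CPM per kilobase of canonical transcript (log axis), grouped by role and sorted by mean level; blue is control, orange Smyca shRNA #1, with a shape per replicate. AGRN and B3GAT3 have the highest mean levels, though SDC4 lies above B3GAT3 in control replicate 1 and knockdown replicate 3. With the gene lengths behind the FPKM values, HSPG2 and SDC1 exceed B3GAT3. HS3ST1, HPSE and PAPSS2 lie near or below 1 in most libraries.

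Of the genes that supply precursors, SLC35B2 was higher and PAPSS2 lower in every knockdown library. SLC35B2 carries PAPS, the sulfate donor, into the Golgi and was the most abundant of its class per length, at a level, in CPM per kilobase, of 36.9 ± 0.581 in the control libraries and 50.8 ± 2.88 in the knockdown libraries (SD, n = 3). It stood at 74.1, 75.99 and 73.8 CPM in the control and 103, 109 and 97.1 CPM in the knockdown. The controls, replicate 3 included, lay close together below all knockdown libraries. The log2 fold change was 0.46 (SE 0.13, unadjusted p = 0.00648, adjusted p = 0.133, edgeR); the adjusted p was 0.035 in DESeq2 and ranged from 0.0284 to 0.443 over the alternatives. PAPSS2, 1 of the 2 synthases that make PAPS, stood at 6.36, 5.41 and 3.27 CPM in the control and 1.46, 1.39 and 2.97 CPM in the knockdown, on 22 to 103 counts per library. Control replicate 3 and knockdown replicate 3 came nearest to each other. The log2 fold change of PAPSS2 was -1.37 (SE 0.41, 95% interval -2.31 to -0.43, unadjusted p = 0.00952, adjusted p = 0.145, edgeR). The adjusted p was 0.0436 in DESeq2, 0.0331 in edgeR without control replicate 3, and ranged from 0.0024 to 0.453 over the alternatives. PAPSS1, the other synthase, was more abundant per length in every library, and PAPSS2 made up 12.3, 9.51 and 7.21% of their summed level per length in the control and 3.36, 2.98 and 5.05% in the knockdown libraries. The share was lower in each knockdown library than in each control library. PAPSS1, UGDH and UXS1, of which UGDH and UXS1 make UDP-glucuronic acid and UDP-xylose, had log2 fold changes of 0.046, 0.015 and 0.24 with overlapping groups. Those of PAPSS1 and UGDH turned negative with total counts as the scaling, at -0.027 and -0.053.

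**Figure D5:**
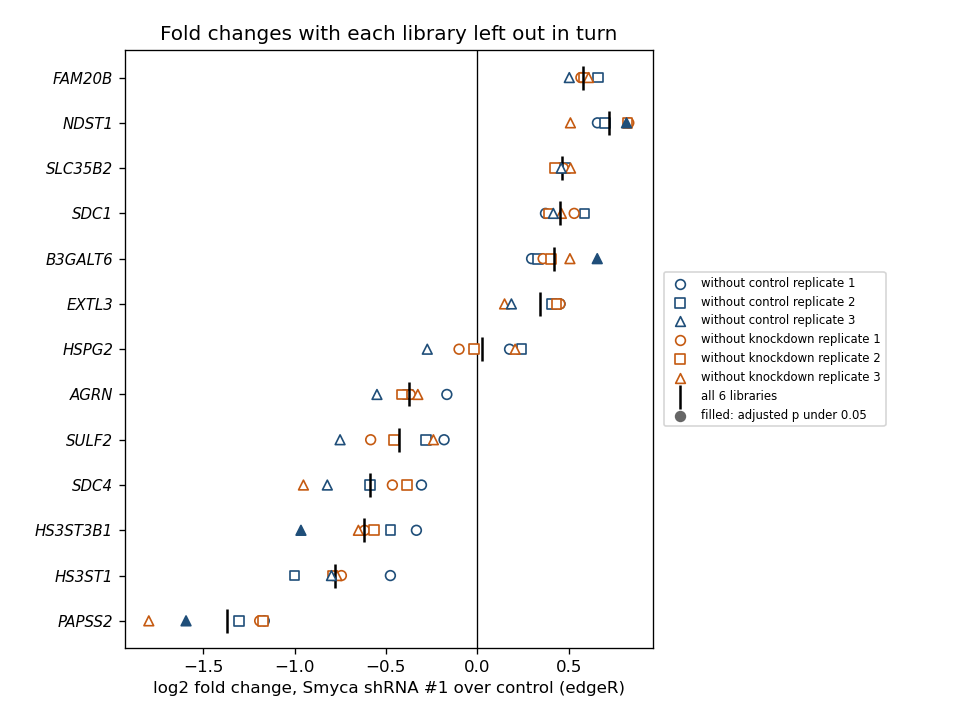
Log2 fold change of 13 heparan sulfate genes in edgeR with all 6 libraries (black bar) and with each library left out in turn (blue for a control and orange for a knockdown library, with a shape per replicate); filled points have an adjusted p under 0.05. The filled points are all from the fit without control replicate 3 and belong to NDST1, B3GALT6, HS3ST3B1 and PAPSS2.

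Other genes around heparan sulfate were read from further lists, each gene adjusted over all genes by edgeR, and none of them passed. For the counts below at an unadjusted p under 0.05, the shares over all genes were 10.4% lower and 8.74% higher, with a median log2 fold change of -0.036. Of 19 other heparan sulfate genes, 10 were tested, with 2 lower and 0 higher in the knockdown at an unadjusted p under 0.05 and a median log2 fold change of -0.10. GPC2, a glypican, stood at 7.34, 8.86 and 8.64 CPM in the control and 5.27, 3.61 and 2.91 CPM in the knockdown, without overlap (log2 fold change -1.07, adjusted p = 0.13, edgeR). HS3ST3A1, the near-identical copy of HS3ST3B1, stood at 5.99, 6.34 and 0.897 CPM in the control and 0.825, 1.14 and 0.858 CPM in the knockdown. Control replicate 3 lay within the range of the knockdown libraries.

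The genes of chondroitin and dermatan sulfate use the same linkage. Of 13 synthesis genes tested of 16, 2 were lower and 1 higher at an unadjusted p under 0.05 (all genes 10.4% and 8.74%), with a median log2 fold change of 0.12 (all genes -0.036). CSGALNACT2, which starts the chondroitin chain, stood at 41.7, 34.03 and 35.5 CPM in the control and 27.3, 21.3 and 22.6 CPM in the knockdown, without overlap (log2 fold change -0.64, adjusted p = 0.126, edgeR). DSE, the dermatan sulfate epimerase, and CHST12, a chondroitin 4-O-sulfotransferase, did not overlap either, with log2 fold changes of -0.71 and 0.49. These 3 genes were 23.1% of the 13 tested, beside 24.8% of all genes without overlap. Of 5 core proteins tested of 12, 1 was lower (CD44) and 0 higher, with a median of -0.28.

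Of the 8 genes of lysosomal heparan sulfate breakdown, all tested, 1 was lower and 0 higher at an unadjusted p under 0.05 (all genes 10.4% and 8.74%), with a median log2 fold change of -0.19 (all genes -0.036). SGSH, the sulfamidase that removes N-sulfate, stood at 17.5, 15.8 and 19.5 CPM in the control and 3.56, 3.86 and 13.1 CPM in the knockdown. Knockdown replicate 3 lay near the controls and the other knockdown libraries far below (log2 fold change -1.36, SE 0.47, adjusted p = 0.179, edgeR). ARSG, of the same list, did not overlap either and was lower (log2 fold change -0.44, adjusted p = 0.306, edgeR). SGSH and ARSG were 25% of the 8 tested, beside 24.8% of all genes without overlap. Of 16 tested of 22 ligands and receptors that bind heparan sulfate, 3 were lower and 2 higher, with a median of -0.60 and 12 of 16 below 0, as were 8047 of all 15075 genes. Their summed level was 2287, 1676 and 1096 CPM in the control and 1432, 1240.2 and 1321 CPM in the knockdown libraries, with control replicate 3 below every knockdown library. FGFR4, a fibroblast growth factor receptor, stood at 80.5, 123 and 113 CPM in the control and 207, 291 and 169 CPM in the knockdown, and FGFBP1, a carrier of such factors, at 1.36, 2.52 and 2.56 and 12.6, 19.1 and 4.49 CPM. VEGFA, the vascular growth factor, stood at 431, 247 and 246 CPM in the control and 197, 84.4 and 129 CPM in the knockdown, and AREG, an EGF receptor ligand, at 230.2, 146 and 126 and 109, 61.4 and 68.3 CPM. These 4 were named because their groups did not overlap, which held for 25% of the 16 tested, beside 24.8% of all genes. FGFR4 and FGFBP1 were higher and VEGFA and AREG lower in the knockdown (edgeR adjusted p between 0.111 and 0.137).

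Of the remaining marker lists, 5 of 8 luminal breast genes were tested with 0 at an unadjusted p under 0.05, KRT19 the most abundant per length and PGR at 0. Of the epithelial junction list, 8 of 8 were tested and 1, CLDN4, was lower, with EPCAM the most abundant. Of the hepatocyte list, 1 of 8, SERPINA1, was tested, with AFP, APOB, TTR and FGB at 0. Of the fibroblast list, 3 of 5 were tested and 1, THY1, was lower, with LUM the most abundant. Of the immune and endothelial list, 2 of 5 were tested with 0 at that level, VWF the most abundant and PTPRC at 0. Over all genes, 10.4% were lower and 8.74% higher at that level.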

How the data were processed

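RNA was sequenced from 3 control and 3 Smyca shRNA #1 libraries, grouped by their labels. After rRNA removal the authors made strand-specific libraries, mapped paired-end reads to GRCh38 (hg38 and TopHat2 2.0.12 in the submitters' processing notes) and counted reads per gene with HTSeq; the strand setting of the counting is not given in the sources used here, so antisense genes that share exon bases (LDLRAD2 with HSPG2 at 11.7% and UGDH-AS1 with UGDH at 12.7%, for example) may share reads. The authors deposited raw counts and FPKM values per gene. In 5 libraries the deposited FPKM is the count scaled by gene length and total; in control replicate 2 it is not, and whole reads (16759253, 100.0% of values within 0.05 of a whole number) were recovered from it as an alternative.

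Of 58302 identifiers, 57532 matched a symbol of GENCODE release 44. The counts were fitted with edgeR 4.0.16 under R 4.3.3 (TMM, filterByExpr, quasi-likelihood test, no block) and Benjamini-Hochberg adjustment over all 15075 genes tested; the SE is the log2 fold change over the root of F. The biological coefficient of variation was 25.2%. A call needed an adjusted p under 0.05 together with a control over knockdown ratio that reached 1.5 or fell to 0.66 or less, as in the study; its DESeq version was not used here. Levels per length used the Ensembl canonical transcript. The code was tested on simulated counts. Alternatives were RLE size factors, total counts, a filter of 10 counts in every library, a filter of 1 count over all libraries, DESeq2 1.42.0, the replicate block (numbers from the labels), each library left out, no ratio criterion, an adjusted p under 0.10 and the recovered reads; leaving out replicate 3 of both groups and the gene lengths behind the FPKM values were added after seeing the data.

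The members and lists were chosen with earlier results of these data known. Values in every library are given for members whose groups do not overlap and whose ratio passes. They are also given for members with an unadjusted p under 0.05, for the highest per length in each role and for MIR23AHG. For each other list at most 4 genes are named, those with the smallest unadjusted p among genes that do not overlap. Of these, DSE, CHST12 and ARSG are named without values in every library. For marker lists, the most abundant gene and those at 0 are named, not always with values. Others named, such as EXT2, EXTL2, HS3ST3A1 and CDH1, were chosen after their values were seen. Genes called the most abundant are so by the mean over all 6 libraries. The lists are the 6 roles of the members, other heparan sulfate genes, chondroitin and dermatan sulfate synthesis and core proteins, lysosomal breakdown, ligands and receptors, and 7 marker lists, from which 2 genes are left out. Proteins were not analysed here.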

Additional observations from a re-analysis of the deposited data

How the results depend on the processing

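The number of all genes called moved most. In place of 4 it was 8 with total counts as the scaling, 916 with no filter beyond 1 count, 836 with DESeq2, 10 with the FPKM reads of control replicate 2, 8 at an adjusted p under 0.10, and 0 to 1628 with each library left out (1628 without control replicate 3). Without the filter, 1 of 33 heparan sulfate genes tested was called in place of 0 (NDST1, 3.03%, beside 3.01% of 30409 genes). DESeq2 called 2 (6.9%, beside 5.55% of all genes). With each library left out, 0 to 4 were called, and the 4 without control replicate 3 were 13.8%, beside 10.5% of 15449 genes. With each library left out, 1 to 6 heparan sulfate genes were lower and 3 to 5 higher at an unadjusted p under 0.05. Shares of all genes at that level in these fits are not given here. The median log2 fold change of the heparan sulfate genes was then -0.059 to 0.14. Replicate 3 of both groups was left out together only after the data had been seen. Then 3036 genes (19.9% of 15294) and 4 heparan sulfate genes (13.8% of 29, B3GALT6, HS3ST3B1, SDC4 and PAPSS2) were called. Of the heparan sulfate genes, 6 were lower and 6 higher at an unadjusted p under 0.05. The shares of all genes at that level in that fit are not given here. Their median was -0.098, beside -0.017 over all genes. The MIR23AHG log2 fold change ran from -1.81 to -1.33 with each library left out, and was -1.49, -1.51 and -1.34 with no filter, with DESeq2 and without both replicates 3, all past the threshold. With total counts, 31.00% of genes at an unadjusted p under 0.05 were higher in the knockdown, beside 45.6%. With the replicate block, 0 genes were called and 1 heparan sulfate gene was lower at an unadjusted p under 0.05. The share of all genes lower in the block fit is not given here. Deviations of same-numbered libraries from their group means correlated across genes at 0.0657, 0.0828 and -0.0121, and not every library correlated best with its own number. With 3 libraries per group, these values cannot decide whether same-numbered libraries were prepared together. Signs reversed, for genes with a log2 fold change of at most 0.34 in either direction: with RLE size factors, GPC4 0.0040; with total counts, HSPG2 -0.033, PAPSS1 -0.027, UGDH -0.053; with no filter beyond 1 count, GPC4 0.022; with at least 10 counts in every library, UGDH -0.0027; with DESeq2, GPC4 0.0040; with the FPKM reads of control replicate 2, GPC4 0.11; with replicate 3 of both groups left out, EXTL3 -0.015, HS2ST1 -0.17, HS6ST1 -0.044, HSPG2 -0.10, PAPSS1 -0.14, UGDH -0.098; with each library left out, EXT1 -0.15 to 0.14, GPC4 -0.086 to 0.11, HS2ST1 -0.073 to 0.19, HSPG2 -0.27 to 0.24, PAPSS1 -0.073 to 0.14, UGDH -0.11 to 0.14. Without reversing, log2 fold changes moved by over 1.5 times with a library left out for XYLT2 -0.19 to -0.033, B4GALT7 0.0045 to 0.20, B3GALT6 0.30 to 0.66, B3GAT3 -0.44 to -0.19, EXT2 0.079 to 0.19, EXTL3 0.15 to 0.45, GLCE -0.41 to -0.18, HS3ST1 -0.9997 to -0.48, HS3ST3B1 -0.97 to -0.33, HS6ST1 0.064 to 0.36, SULF2 -0.75 to -0.18, HPSE -0.82 to -0.33, SDC4 -0.95 to -0.31, GPC1 0.13 to 0.32, AGRN -0.55 to -0.17. They moved so with other settings for these genes: with the FPKM reads of control replicate 2, B4GALT7 0.019, B3GALT6 0.18, EXT1 -0.062, EXTL3 0.53, GLCE -0.16, HS2ST1 0.15, HS3ST3B1 -0.30, HS6ST1 0.40, SULF2 -0.035, HPSE -0.33, SDC4 -0.39, AGRN -0.25, HSPG2 0.44, PAPSS1 0.16; without replicate 3 of both groups, B4GALT7 0.22, B3GALT6 0.74, B3GAT3 -0.082, EXT1 -0.18, EXT2 0.074, GLCE -0.49, HS3ST3B1 -1.0045, SDC4 -1.19, GPC4 -0.044; with total counts, XYLT2 -0.19, B4GALT7 0.039, EXT1 -0.098, EXT2 0.061, HS2ST1 0.028, GPC4 -0.079; with RLE size factors, EXT1 -0.021, HSPG2 0.043, UGDH 0.030; with DESeq2, EXT1 -0.022, HSPG2 0.043, UGDH 0.030; with no filter beyond 1 count, EXT1 -0.0037, HSPG2 0.057, PAPSS1 0.078, UGDH 0.049; with at least 10 counts in every library, GPC4 -0.027, HSPG2 0.013, PAPSS1 0.028; with the replicate block, GPC4 -0.0060, HSPG2 0.11, UGDH 0.0028. The cause was not tested for any of these. MIR23AHG and the tested heparan sulfate genes other than those that reversed kept their direction under all alternatives; genes of the other lists were not compared over alternatives. At this depth, 8 of the 37 heparan sulfate genes had too few counts to be tested.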
